A study of Mus musculus with 2 samples.

Results

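The miR-29 family was measured by microRNA sequencing, which counts short RNA molecules, in the lung of mouse embryos of the B6NCrl strain at day 14.5 of gestation (E14.5). The family comprises 4 of the 1973 miRNA genes in the deposited tables, Mir29a, Mir29b-1, Mir29b-2 and Mir29c. They were taken by name, with earlier results of these data known. The data consist of 2 libraries of total RNA with inserts under 30 bases, which the labels give as separate samples. They form 1 group, with no treatment, genotype, stage or tissue to compare, so "low" below means low beside other miRNAs of the same libraries. The labels describe each library as the lung of a single pup, yet give the sex as pooled male and female, and they give a different collection day for each, so replicate and day cannot be told apart.

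MicroRNAs are short RNAs that are cut from hairpin precursors and guide a silencing complex to messenger RNAs, chiefly through the seed, the bases near the 5′ end of the mature miRNA. The miR-29 family is known for repressing collagens, elastin, fibrillins and other matrix genes, and the de novo DNA methyltransferases Dnmt3a and Dnmt3b. In the lung it is studied as a restraint on fibrosis, and in several tissues its level is known to rise with maturation. The family is transcribed from a pair of clusters, each of which encodes a copy of miR-29b.

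The mature sequences are shown first because they decide which reads can be assigned to a gene. All are from RefSeq (GRCm38.p6), in which 4 of 4 members were matched by symbol, and capitals mark the seed, bases 2 to 8 from the 5′ end. The 3p arm, which is the main product of these hairpins, reads as follows.
miR-29a-3p: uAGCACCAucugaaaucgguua
miR-29b-3p: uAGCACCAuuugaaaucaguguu
miR-29c-3p: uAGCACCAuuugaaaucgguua
The 3 sequences have 1 seed, AGCACCA, which no other gene of the RefSeq table carried among 1738 mature entries. With positions counted from 1 at the 5′ end, miR-29a-3p and miR-29c-3p differed by the single substitution C10U. Between miR-29b-3p and miR-29c-3p the substitutions were A18G, G21U and U22A, so these 2 arms were identical over their first 17 bases. Between miR-29a-3p and miR-29b-3p there were 4 substitutions over 22 bases, the first of them C10U.

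The 5p arms, the partner strands of the same hairpins, differed in all 4 genes.
miR-29a-5p: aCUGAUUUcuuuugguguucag
miR-29b-1-5p: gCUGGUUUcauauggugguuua
miR-29b-2-5p: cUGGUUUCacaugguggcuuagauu
miR-29c-5p: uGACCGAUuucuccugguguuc
The longest stretch shared by any pair of them was 9 bases, between the arms of Mir29b-1 and Mir29b-2. A read of a 5p arm therefore separates the miR-29b copies, whereas a read of miR-29b-3p does not.

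The miR-29b hairpins show how much sequence the copies share. Capitals mark the longest common stretch.
Mir29b-1 hairpin: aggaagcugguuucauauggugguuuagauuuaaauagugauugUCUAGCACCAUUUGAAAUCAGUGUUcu
Mir29b-2 hairpin: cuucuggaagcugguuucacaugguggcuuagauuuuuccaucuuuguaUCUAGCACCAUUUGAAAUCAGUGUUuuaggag
The shared 25 bases contain the whole 23 bases of miR-29b-3p, with 2 further bases on its 5′ side and none on its 3′ side. Mir29b-1 also shared 22 bases with Mir29c, and Mir29b-2 shared 19 bases with Mir29c, both stopping before the last bases of the 3p arm. Mir29a was the most distinct, with at most 14 bases in common with another member (Mir29c). Whether these sequences also occur outside annotated miRNA genes was not tested.

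In mm10 coordinates (GENCODE M21), Mir29a lies on chromosome 6 from 31062660 to 31062747 and Mir29b-1 from 31063023 to 31063093, both on the minus strand, with 275 bases between the hairpins. Mir29a overlapped no other annotated gene, and Mir29b-1 overlapped the long noncoding RNA Gm27019 by 2 bases. Mir29b-2 lies on chromosome 1 from 195037040 to 195037120 and Mir29c from 195037547 to 195037634, both on the plus strand and 426 bases apart. Both are within an exon of the noncoding host transcript A330023F24Rik, and on the opposite strand the same bases are within an exon of Cd46, which encodes a complement regulator. No read was counted on the strand opposite to any of the 4 members in either library (0 counts, which allows up to 3, or 0.585 and 1.29 counts per 1000000).

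The miR-29 genes of E14.5 lung were represented by Mir29a and Mir29c, with nearly no reads assigned to either miR-29b copy. Mir29a had 535 counts in replicate 1 and 212 in replicate 2. Scaled to 1000000 counts on the strand of the annotated genes (CPM), these were 104 CPM (95% exact, Clopper-Pearson, binomial interval 95.7 to 114) and 90.9 CPM (79.1 to 104), a mean of 97.6 ± 9.49 CPM (SD, n = 2). A read was taken to cover a mature miRNA whole, so CPM values were not divided by length. Whether shortened reads, or alignments with mismatches, changed the counts of Mir29a or Mir29c was not tested. The same limit holds for the ratio of these genes below. Mir29a was lower in replicate 2, and the intervals of the libraries overlapped.

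Mir29c had 351 counts in replicate 1 and 153 in replicate 2. Its levels were 68.4 CPM (61.5 to 76.0) and 65.6 CPM (55.6 to 76.9), a mean of 67.0 ± 2.01 CPM (SD, n = 2). Mir29c lay below Mir29a in both libraries, and in neither library did the intervals of these genes overlap.

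Mir29b-1 had 4 counts in replicate 1 and 2 in replicate 2, or 0.780 CPM (0.213 to 2.00) and 0.858 CPM (0.104 to 3.10). Mir29b-2 had 2 counts in each library, or 0.390 CPM (0.0472 to 1.41) and 0.858 CPM (0.104 to 3.10). The intervals of the miR-29b copies overlapped in both libraries. Reads that aligned to several places were counted apart from the genes, so these counts leave out any miR-29b-3p read that placed equally at both loci, and the level of mature miR-29b is not given by these values. Reads of the 5p arms assigned to these loci can number no more than the counts given. For Mir29b-1 and Mir29b-2 the version of the gene identifier differs between the deposited table and GENCODE M21, and whether the annotated extent used for counting matched the hairpin above was not tested.

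**Figure D1:**
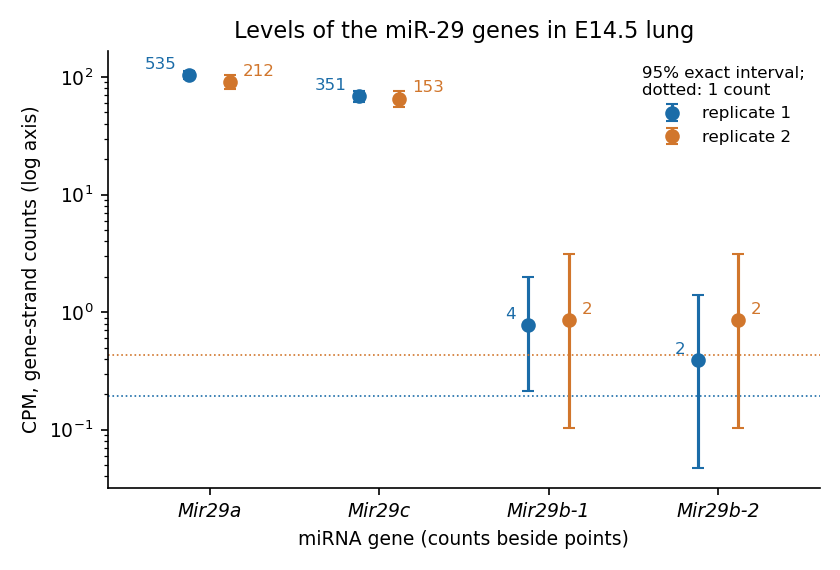
CPM of the 4 miR-29 genes on a log axis in replicate 1 (blue) and replicate 2 (orange), with 95% exact binomial intervals that cover counting error only, the counts beside the points and a dotted line at the CPM of 1 count. Mir29a (535 and 212 counts) and Mir29c (351 and 153) lie far above Mir29b-1 (4 and 2) and Mir29b-2 (2 and 2).

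Among all 1973 genes, Mir29a ranked 184 in replicate 1 and 195 in replicate 2, and Mir29c ranked 209 and 213. Genes with at least 1 count numbered 647 in replicate 1 and 582 in replicate 2. Mir29a thus stood at 28.4% and 33.5% of the way down the detected genes, and Mir29c at 32.3% and 36.6%. Mir29b-1 ranked 450, tied with other genes of 4 counts, and Mir29b-2 ranked 509 in replicate 1. In replicate 2 both shared rank 442 among 43 genes with 2 counts. A count of 10 or more in both libraries was reached by 320 genes, Mir29a and Mir29c among them. Their median level was 195 CPM, and 187 of them had a higher mean than Mir29a and 210 a higher mean than Mir29c. The gene of the highest mean, Mir143 of smooth muscle, had 450-fold the counts assigned to the 4 miR-29 genes together in replicate 1 and 382-fold in replicate 2.

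**Figure D2:**
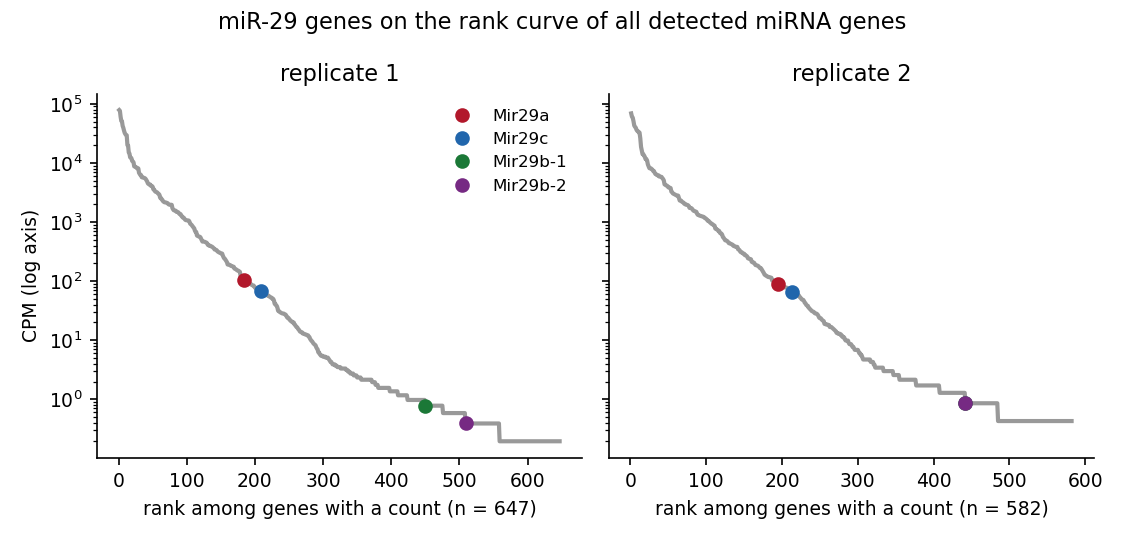
CPM (log axis) against rank for the 647 genes with a count in replicate 1 and the 582 in replicate 2, as a grey line with the miR-29 genes as points. Mir29a and Mir29c sit at ranks 184 to 213, between 28.4% and 36.6% of the way down the detected genes, whereas the miR-29b copies sit on its low steps of a few counts, where in replicate 2 the point of Mir29b-2 covers that of Mir29b-1.

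As a whole the family held 892 counts in replicate 1, 0.0174% of gene-strand counts (0.0163 to 0.0186), and 369 in replicate 2, 0.0158% (0.0142 to 0.0175). The mean share was 0.0166% ± 0.00111 (SD, n = 2). Mir29a supplied 59.98% of the family's counts in replicate 1 and 57.5% in replicate 2, and Mir29c 39.3% and 41.5%. The miR-29b copies each supplied under 1%, at 0.448% and 0.224% in replicate 1 and 0.542% each in replicate 2. The family's counts equalled 0.0265% and 0.0245% of the number of multimapping reads in the same libraries (3359798 and 1503822). How many of the multimapping reads were miR-29b-3p was not tested.

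Ratios between members were taken within a library, where no scaling between libraries enters. Mir29a exceeded Mir29c by 1.52-fold in replicate 1 (exact interval 1.33 to 1.75) and 1.39-fold in replicate 2 (1.12 to 1.72), a log2 ratio of 0.54 ± 0.10 (SD, n = 2). The chromosome 6 pair together exceeded the chromosome 1 pair by 1.53-fold and 1.38-fold (log2 ratio 0.54 ± 0.10), which was the ratio of Mir29a to Mir29c because the miR-29b copies added 6 and 4 counts. Within the chromosome 6 pair, Mir29a exceeded Mir29b-1 by 134-fold (51.9 to 493) and 106-fold (29.0 to 881). Within the chromosome 1 pair, Mir29c exceeded Mir29b-2 by 176-fold (48.2 to 1455) and 76.5-fold (20.8 to 637). Members of a pair are known to be cut from 1 primary transcript. The miR-29b side of each ratio leaves out miR-29b-3p reads that placed at both loci, so these ratios do not compare the levels of the mature miRNAs. They compare the reads assigned to a single locus, and how evenly the sequences were captured in the libraries was not measured.

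The duplicated miRNAs of the miR-30, miR-26 and miR-15/16 families had more reads at their loci than the miR-29b copies. Mir30c-1 and Mir30c-2, which share miR-30c-5p, stood at 91.7 ± 0.0818 and 55.4 ± 4.72 CPM (SD, n = 2), and together they held 123-fold (56.2 to 336) and 87.8-fold (34.0 to 324) the counts of the miR-29b copies. Mir26a-1 and Mir26a-2, which share miR-26a-5p, stood at 21.2 ± 3.92 and 55.6 ± 3.49 CPM, or 70.2-fold (32.0 to 192) and 41.8-fold (16.005 to 155) the miR-29b copies together. Mir16-1 and Mir16-2, which share miR-16-5p, stood at 3516 ± 410.1 and 1066 ± 207.2 CPM. The sequence table matched 916 of the listed genes by symbol, and 53 of them had, like the miR-29b copies, 1 mature sequence in common with another gene and 1 of their own. Of these 53 genes, 36 (67.9%) reached 10 counts in each library, and the miR-29b copies did not. By mean CPM Mir29b-1 stood at place 41, shared with Mir365-1, and Mir29b-2 at place 44 of the 53, and 6 genes of the class had no count. Of the genes without a shared mature sequence 251 of 829 (30.3%) reached 10 counts in each library, and of those whose mature sequences were all shared 6 of 34 (17.6%). The classes hold different genes, so these shares do not measure how many reads a gene loses to its copies.

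**Figure D3:**
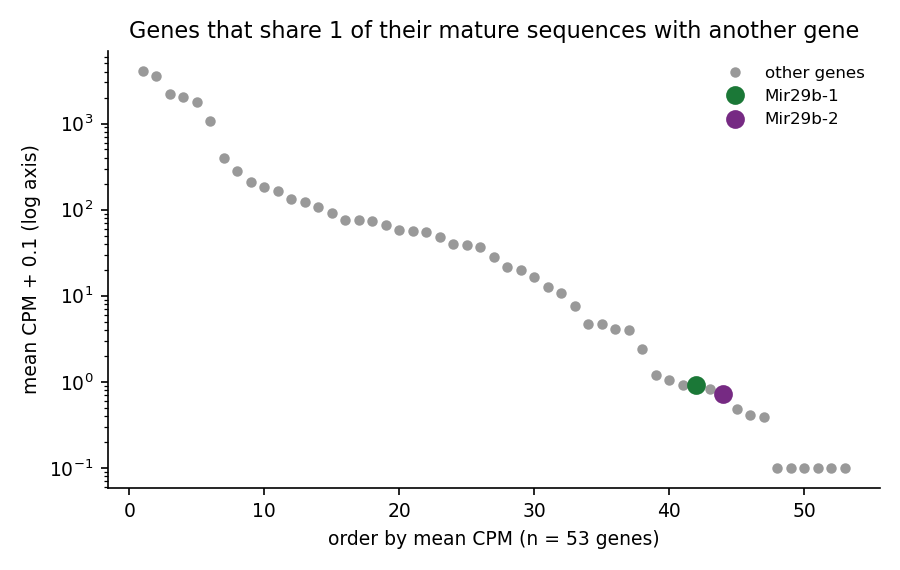
Mean CPM plus 0.1 (log axis) of the 53 miRNA genes that share 1 of their mature sequences with another gene, ordered from highest to lowest. Mir29b-1 and Mir29b-2 lie at places 41 and 44 of the order (Mir29b-1 is drawn after the tied Mir365-1), above the 6 genes with no count.

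The family was compared with 4 other families that are encoded at several loci, by the reads assigned to their genes. The miR-29 side leaves out miR-29b-3p reads that fit both copies, so these ratios do not compare levels of mature miRNAs. The miR-148 and miR-152 family, which is known to repress DNA methyltransferases like miR-29 does, held 9.78-fold the counts of miR-29 in replicate 1 (9.13 to 10.5) and 12.01-fold in replicate 2 (10.8 to 13.4). Its 3 members, Mir148a (1085 ± 100.2 CPM), Mir148b (417 ± 29.1) and Mir152 (299.8 ± 11.4), were each above Mir29a in both libraries. miR-15/16, known to restrain the cell cycle and Bcl2, exceeded miR-29 by 84.4-fold (79.0 to 90.2) and 95.1-fold (85.9 to 106). By assigned reads Mir15a was in front at 5450 ± 144 CPM, followed by Mir16-1, Mir15b at 3010 ± 18.3 and Mir195a at 1823 ± 189. Mir16-1 shares a mature sequence with its copy, so reads that fit both are missing from its count. No order of the mature miRNAs follows for Mir15a and Mir16-1. miR-26, hosted by the Ctdsp genes, exceeded miR-29 by 186-fold (174 to 199) and 207-fold (187 to 230). miR-30 exceeded it by 207-fold (194 to 221) and 294-fold (266 to 327), led by Mir30e (23033 ± 4272 CPM), Mir30a (12396 ± 2287), Mir30d (5505 ± 944) and Mir30b (192 ± 20.8).

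The order of the families by assigned reads, miR-29 below miR-148 with miR-152, miR-15/16, miR-26 and miR-30, was the same in both libraries. Since the miR-29 total lacks the shared miR-29b-3p reads, the place of the whole family by mature miRNA is not given by it. The counts assigned to Mir30c-1 (91.6 and 91.8 CPM) lay on either side of those of Mir29a (104 and 90.9), and those of Mir30c-2, Mir26a-1 and Mir26a-2 lay below Mir29c in both libraries. These 4 genes share a mature sequence with another gene, so reads that fit both copies are missing from their counts and no order of the mature miRNAs follows. The miR-26 total was nearly all Mir26b (99.7% and 99.8% of the family's counts, 32468 ± 276 CPM), and the log2 ratio of miR-26 to miR-29 was 7.62 by sums and 7.63 without the genes that share a mature sequence. By the median of members it was 0.71, a value set by Mir26a-2, Mir29b-1 and Mir29c, of which Mir26a-2 and Mir29b-1 lack their shared reads.

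**Figure D4:**
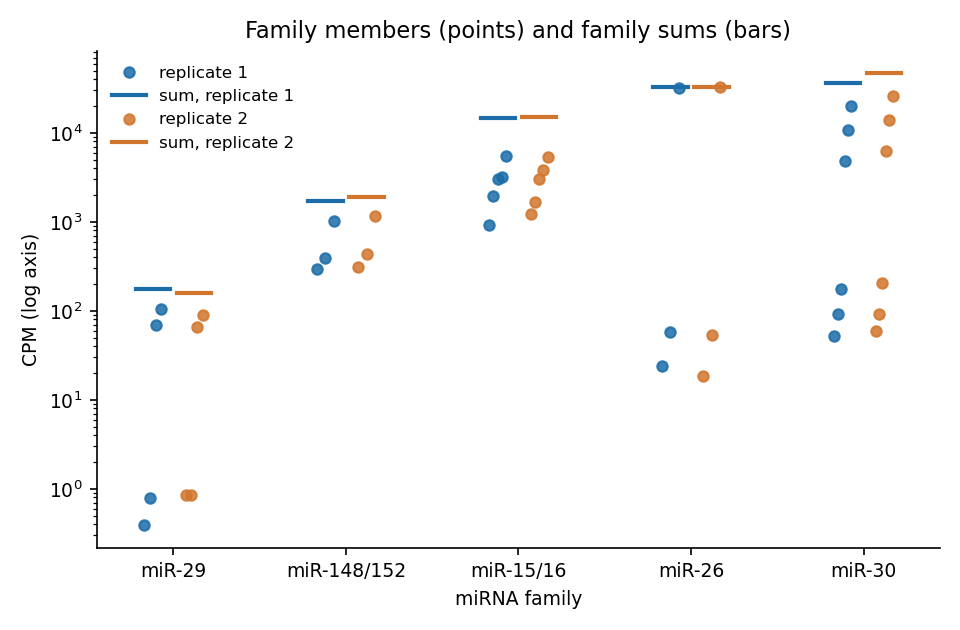
CPM (log axis) of each member (points) and of the family sum (bars) for 5 miRNA families in replicate 1 (blue) and replicate 2 (orange). The miR-29 sum (174 and 158 CPM) is the lowest of the 5, and the miR-29b copies are the lowest members shown. Reads that fit several loci, such as those of miR-29b-3p, are left out of points and sums.

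miR-29 is known as a repressor of matrix genes, and 17 other miRNA genes studied in matrix production and lung fibrosis were read beside it. Of these, 9 were above Mir29a in both libraries. The pro-fibrotic Mir21a stood at 12443 ± 184 CPM and the mesenchymal Mir214 at 8920 ± 692 CPM (SD, n = 2). Mirlet7d stood at 14184 ± 316 CPM, and the epithelial Mir200c and Mir200b at 10881 ± 969 and 5942 ± 308 CPM. Mir30a, given above, Mir145a of smooth muscle (1502 ± 45.8), Mir200a (912 ± 68.2) and the p53-induced Mir34a (446 ± 50.7) made up the 9. In both libraries 5 were below Mir29c: Mir26a-1, Mir26a-2, Mir199a-1 (7.04 ± 5.82 CPM), and Mir133a-1 and Mir133a-2 with 0 counts each. All 5 are copies of a duplicated miRNA whose shared reads were counted apart from the genes, so their counts do not give the level of the mature miRNA. The remaining 3, Mir199a-2 (107 ± 22.8 CPM), Mir155 (76.0 ± 18.1) and Mir192 (74.0 ± 10.6), were neither above Mir29a nor below Mir29c in both libraries, and for Mir199a-2, another such copy, the same limit holds. The list has no comparison between conditions here. Between the replicates, 15 of its members were tested as described below. Of these 15, 7 were called higher in replicate 2, a share above the 17.8% of all genes tested. Higher in replicate 1 were 3 of the 15, a share below the 24.0% of all genes. Many of its members are abundant, and the shares were not matched for level.

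The genes nearest to Mir29a in level, by Euclidean distance of log2(CPM + 1) over the 2 libraries, were Mir495 (distance 0.16, 92.8 ± 0.856 CPM), Mir30c-1 (0.19) and Mir204 (0.26, 85.9 ± 5.07 CPM). Those nearest to Mir29c were Mir7j (0.08, 64.5 ± 1.45 CPM), Mir666 (0.11, 66.3 ± 7.11) and Mir412 (0.14, 65.9 ± 8.29). With 2 libraries the measure describes a common level and no shared pattern.

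Between the replicates, Mir29a and Mir29c were both lower in replicate 2. On TMM-scaled counts with a pseudocount of 1 CPM, the log2 ratio of replicate 2 to replicate 1 was -0.28 for Mir29a (exact two-sided binomial test, adjusted p = 0.0349) and -0.15 for Mir29c (exact, adjusted p = 0.465). The adjustment runs over the 404 genes with at least 10 counts over both libraries, of which 169 (41.8%) were called, 97 (24.0%) of the 404 higher in replicate 1 and 72 (17.8%) higher in replicate 2. Mir29a was called and Mir29c was not, which is 1 of the 2 members tested, a share near that of all genes. The miR-29b copies had too few counts to be tested. The median log2 ratio of the 2 members was -0.22, beside -0.03 for all genes tested. In size, the ratio of Mir29a was above and that of Mir29c below the median absolute log2 ratio of all genes tested, 0.23. The call for Mir29a ended with library totals in place of TMM (log2 ratio -0.20, exact adjusted p = 0.178), a scaling under which 112 of 177 called genes were higher in replicate 2. It also ended with no filter on low counts (exact adjusted p = 0.0576), and with the common dispersion of the libraries added to counting error (exact adjusted p = 1.0), the highest of the alternatives. DESeq2 size factors gave the lowest (log2 ratio -0.33, exact adjusted p = 0.011). The share of all genes called was 43.8% with library totals, 41.6% with DESeq2 size factors, 23.7% with no filter and 0.248% with the dispersion added. The common dispersion was itself estimated from the differences between these 2 libraries. A test that uses it could therefore call few genes, and the loss of the Mir29a call under it decides nothing. All of the replicate tests compare the reads of 2 libraries and no condition, and the spread may be technical.

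**Figure D5:**
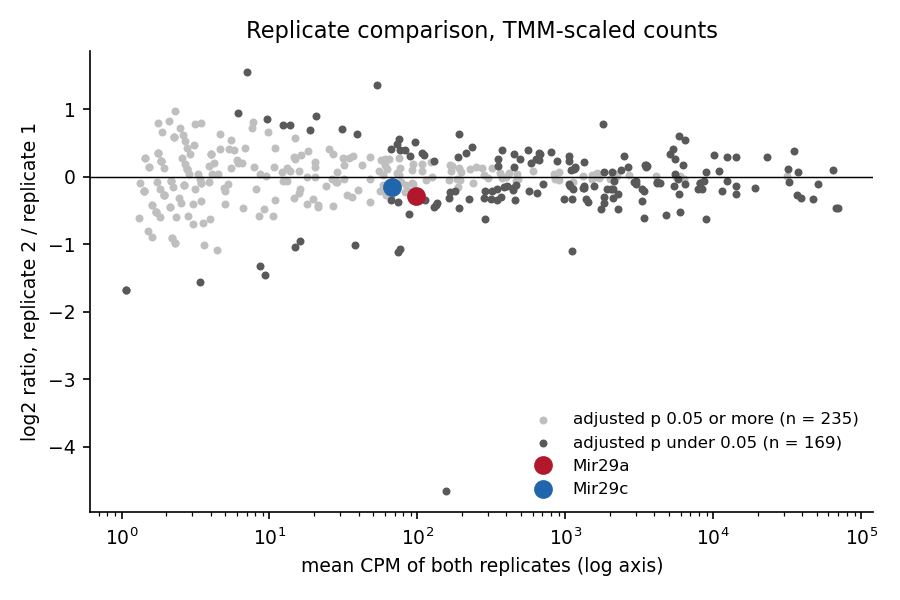
Log2 ratio of replicate 2 to replicate 1 against mean CPM (log axis) for the 404 genes tested, with the 169 genes of adjusted p under 0.05 in dark grey. Mir29a (-0.28) and Mir29c (-0.15) lie slightly below 0, inside the cloud of genes of similar level.

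The libraries held 5128214 and 2332032 gene-strand counts. Markers of lung tissue were abundant in both, with the epithelial miR-200 family (5 of 5 members) at 33294 and 33730 CPM, endothelial Mir126a at 76032 and 58438 CPM, and Mir143 with Mir145a of smooth muscle at 79791 and 62023 CPM. Markers of other tissues that are encoded at a single locus were lower, with liver Mir122 at 22.4 and 39.5 CPM and Mir206 of skeletal muscle at 6.24 and 12.9 CPM. The neuronal Mir124a genes had 0 counts at 3 of 3 loci, but they encode a common mature miRNA whose shared reads were counted apart from the genes, so this gives no level of neuronal miRNA. The same limit holds for the Mir1a and Mir133a genes in the skeletal muscle list. That list summed to 7.02 and 14.2 CPM, most of it Mir206. Red blood cell markers summed to 497 and 392 CPM and white blood cell markers to 691 and 662 CPM. All 3 heart markers were lower in replicate 2, with sums of 361 and 42.0 CPM, chiefly through Mir208a (299 and 11.6 CPM). Of the other markers, Mir126a, Mir143, Mir429, Mir223, Mir144 and Mir451a were called lower in replicate 2, and Mir200c, Mir155, Mir122 and Mir206 higher. Mir29a was among the 97 (24.0%) of 404 tested genes called higher in replicate 1. The part of any cell type in its difference was not tested. In bulk tissue, fewer cells that express a miRNA and less of it per cell cannot be told apart.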

How the data were processed

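Raw counts per miRNA gene were deposited by the authors, 1 table per library with 3 columns. From their values, the first column is the sum of the other columns, which hold reads on the gene's strand and on the opposite strand. The deposited readme names mm10 and GENCODE M4. The software for alignment and counting is not given in the sources used. The gene-strand column was used. In replicate 1, 12.7% of reads were unmapped, 32.9% multimapping and 4.10% outside genes, and in replicate 2 11.7%, 33.1% and 3.93%. These summary entries, and 0 ambiguous reads, name no gene and stayed out of totals, so 1 count was 0.195 CPM and 0.429 CPM. Symbols came from GENCODE M21 (1894 of 1973 identifiers matched, and the other 79 held 1 count).

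Intervals are 95% Clopper-Pearson and, like the limit of 3 counts for a 0, cover counting error only, since amplified reads need not be independent molecules. Replicates were compared by an exact binomial test with Benjamini-Hochberg adjustment at 0.05, since 1 library a side leaves a quasi-likelihood fit no residual degrees of freedom. The test was first run on simulated data with counting error only. That run cannot show how the test behaves under further spread between libraries. The members, the lists and the rule for named genes (the 4 members, the 3 nearest genes to Mir29a and to Mir29c, up to 4 members of each family of at least 10 CPM, up to 8 of each other list, and the most abundant gene) were chosen with earlier results of these data known. List members outside it (Mir16-2, Mir30c-2, Mir34a, Mir155, Mir192, Mir199a-1, Mir199a-2, Mir133a-1 and Mir133a-2), Mir365-1 and marker genes were named after their values were seen. Mir497a of the miR-15/16 list and Mir1a-2 were not analysed here. Alternatives were the unstranded column, other denominators and scalings (edgeR 4.0.16 TMM, DESeq2 1.42.0 size factors), filters, pseudocounts, leaving out a replicate, family medians and an exact beta-binomial test. R 4.3.3 and Python 3.11.15 were used.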

Additional observations from a re-analysis of the deposited data

How the results depend on the processing

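With multimapping and other mapped unassigned reads in the denominator, Mir29a fell to 56.4 CPM, Mir29c to 38.8, Mir29b-1 to 0.474 and the family share to 0.0096%; without the most abundant gene Mir29c was 72.05 CPM, Mir29b-1 0.880 CPM and the share 0.0179%. Leaving out a replicate put Mir29a between 90.9 and 104 CPM, Mir29c between 65.6 and 68.4, the share between 0.0158% and 0.0174% and the log2 ratio of Mir29a to Mir29c between 0.47 and 0.61. By family medians the log2 ratio to miR-29 was 6.38 for miR-30 (7.95 by sums) and 0.71 for miR-26, and without genes that share a mature sequence it was 5.97 for miR-15/16 (6.49 with them), 7.63 for miR-26 and 7.95 for miR-30. With the common dispersion added, 1 gene was called (0.248% of 404) in place of 169, and 15 had an unadjusted p under 0.05. That dispersion was estimated from the same 2 libraries, so few calls could follow. Of called genes 72 of 169 were higher in replicate 2, and 112 of 177 with library totals. Genes without a shared mature sequence numbered 430 with at least 1 count in both libraries, and 251 with at least 10. Mir29a stayed lower in replicate 2 under every alternative run and Mir29a above Mir29c in each library. No paired analysis was possible because the design has 1 group. The miR-29b copies, with counts of 2 to 4, were not tested between replicates.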
